A study of Mus musculus with 12 samples.

Results

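Medullary thymic epithelial cells (mTECs) were compared by their surface MHC class II, high in mTEC hi and low in mTEC lo, in libraries titled WT. The comparison uses the 6 libraries whose titles name WT, 3 of mTEC hi and 3 of mTEC lo, out of 12 mTEC libraries in all. The other 6 libraries are titled as Psmb11 knockout, and Psmb11 encodes beta5t, a proteasome subunit of thymic epithelium. Polyadenylated RNA was sequenced from primary thymus cells of mice 6 to 8 weeks old. The strain is given as B6.B6CB-Psmb11tm1Smta, as Psmb11+/+ for WT and as Psmb11-/- for the knockout. The labels conflict for 4 of the 12 libraries. In both cell types the library titled WT replicate 1 carries the source name and strain of the knockout, and the library titled knockout replicate 3 carries those of WT. Psmb11 followed the titles. Over all 12 libraries it stood between 7.09 and 12.3 CPM (reads per gene relative to the library total, scaled by TMM) in those titled WT, the disputed ones included, and between 0.84 and 1.66 CPM in those titled knockout. Grouping here is by title. With replicates 2 and 3 alone, which leaves out the disputed libraries, 17801 genes were called in place of 18807, 22 of the 38 gene lists kept their counts exactly, no other list changed by more than 2 risen or 1 fallen member, and no list median changed sign. Since no label ties a library to its own animal, p-values here reflect variation among the libraries and that variation may be technical.

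mTECs show developing T cells a wide range of the body's own proteins, so that self-reactive T cells are deleted or turned into regulatory T cells. Mature mTECs carry much MHC class II and costimulatory ligands, and many of them express Aire, a nuclear protein that promotes transcription of genes otherwise restricted to other tissues. mTECs with low MHC class II are a mixture of immature cells, cells that secrete the chemokine CCL21, and cells that have passed the Aire stage. Some of the last group take on programmes of peripheral cell types, such as tuft cells or muscle, and are called mimetic cells.

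The 6 libraries held 38791960 to 76801850 reads assigned to genes. Reads that fell in no annotated gene made up 15.3% to 15.8% of mTEC hi libraries and 10.02% to 11.1% of mTEC lo libraries, and mitochondrial genes took 1.69% to 1.92% and 2.11% to 2.71% of gene reads. The first principal component, which separated the cell types, held 93.4% of the variance, and the second held 2.36% and set mTEC lo replicate 2 apart from mTEC lo replicate 3. No pair of libraries agreed within sampling noise.

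The labels were first set against a marker of each cell type. Aire (chromosome 10, 78030022 to 78043610, minus strand, GRCm38, GENCODE M21) was at 2024, 2014 and 2259 CPM in mTEC hi replicates 1 to 3 and at 26.2, 18.2 and 11.1 CPM in mTEC lo. Every mTEC hi library lay far above every mTEC lo library, with a log2 fold change of 6.83 (SE 0.24, edgeR adjusted p = 8.5e-12). Ccl21a (chromosome 4, 42772860 to 42773993, minus strand), the chemokine of the medulla that draws in thymocytes expressing CCR7, was at 199, 197 and 204 CPM in mTEC hi and at 3292, 3705 and 3778 CPM in mTEC lo. Its groups did not overlap either (log2 fold change -4.17, SE 0.08, edgeR adjusted p = 6.06e-14). Ccl21a has near-identical copies in the mouse genome. Reads that fit more than 1 place were counted as multimapping and left out, so its CPM can be too low. Epithelial genes were high in both: the epithelial adhesion gene Epcam stood at 598 to 635 CPM in mTEC hi and 791 to 837 CPM in mTEC lo, and the keratin gene Krt8 at 1475 to 1570 CPM and 1508 to 1637 CPM.

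Below, a positive log2 fold change is higher in mTEC hi, and a gene "rose" or "fell" where it was higher or lower in mTEC hi at an edgeR adjusted p under 0.05. By this measure 18807 of 24382 tested genes differed (77.1%), of which 10340 rose (42.4%) and 8467 fell (34.7%). The counts of every gene list below are to be read beside these shares, and several lists lie near them. The median log2 fold change of all tested genes was 0.09, or 0.36 with scaling by library size alone, so that small differences depend on the scaling. The shares that rose among called genes were 54.98% and 68.0% under these scalings. The libraries of the cell types did not overlap in 79.8% of tested genes, in either direction. Large changes were mostly rises: 4565 genes were at least 8-fold higher in mTEC hi and 274 at least 8-fold lower, and at 32-fold the counts were 2291 and 9. Of protein-coding genes 3215 were at least 8-fold higher and 202 at least 8-fold lower. Long noncoding and still unclassified transcripts rose in 1904 cases and fell in 696 of 4119 tested.

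**Figure D1:**
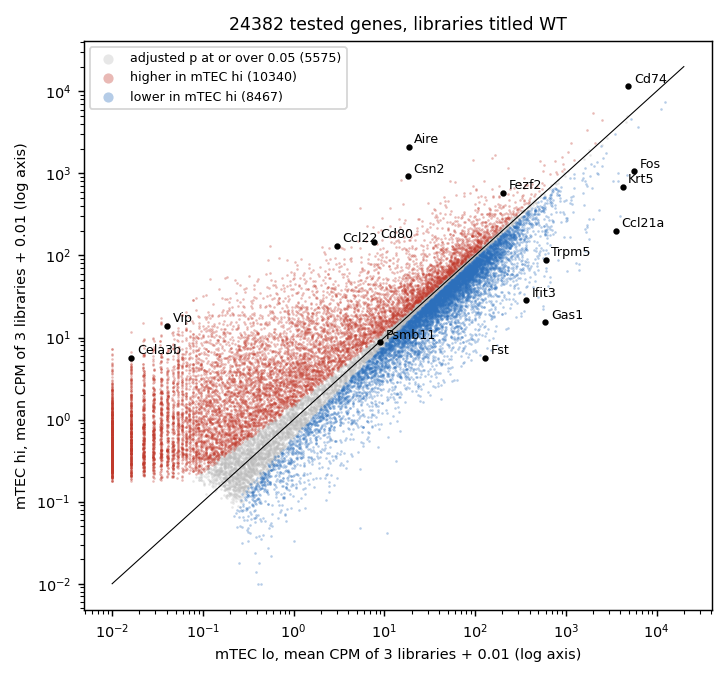
Mean CPM in mTEC lo (horizontal) and mTEC hi (vertical) of each tested gene, both on log axes with a small constant added as labelled, 3 libraries per cell type. The 10340 genes higher in mTEC hi spread far above the diagonal at low mTEC lo levels, while most of the 8467 lower genes lie close below it.

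The breadth of expression was compared at equal depth. With every library thinned to 38791960 reads, 27278, 26964 and 26796 genes had at least 5 reads in the mTEC hi libraries, and 21459, 21388 and 21230 in the mTEC lo libraries. All mTEC hi libraries lay above all mTEC lo libraries, and the mean excess was 5654 genes or 26.5% (two-sided exact permutation test, p = 0.1, below which a 3 against 3 design cannot go). Protein-coding genes counted were 18932 ± 57.8 and 16274 ± 73.8 (SD, n = 3), and long noncoding and unclassified genes 5214 ± 74.1 and 3258 ± 59.2. The share of reads outside annotated genes, given above, was also higher in mTEC hi, and its part in the count was not tested. By the authors' TPM values 571 protein-coding genes had at least 1 TPM in all mTEC hi libraries and under 0.1 TPM in all mTEC lo libraries, and 3 had the reverse.

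**Figure D2:**
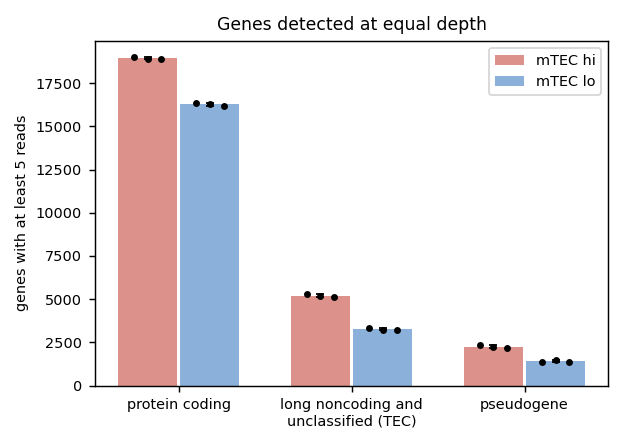
Genes with at least 5 reads after thinning all libraries to 38791960 reads, by gene class. Bars are means of 3 libraries, error bars are SD and points are libraries; the mTEC hi libraries lie above the mTEC lo libraries in each class.

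The genes with the most reads were taken among those that changed at least 4-fold and whose cell types did not overlap, so that their separation comes from the choice. Those highest in mTEC hi came from several programmes. After Aire came Ubd, which encodes the ubiquitin-like protein FAT10, at 1748, 1731 and 1591 CPM against 160, 172 and 161 CPM. Srgn, the proteoglycan serglycin of secretory granules, was at 1507, 1643 and 1503 CPM against 150, 155 and 155 CPM. The milk protein gene Csn2 (beta-casein, chromosome 5, 87692624 to 87699630, minus strand) was at 954, 921 and 889 CPM against 22.0, 16.5 and 15.6 CPM. The mTEC hi libraries of these genes lay close to each other. Hdc, the enzyme that makes histamine, stood at 826 ± 36.3 CPM against 15.1 ± 2.57 CPM (SD, n = 3). Sspo, which encodes the giant secreted protein SCO-spondin, stood at 1456 ± 219 CPM against 95.7 ± 20.6 CPM. Ptgs2, the inducible cyclooxygenase, stood at 787 ± 86.0 CPM against 59.9 ± 7.75 CPM. The other rises chosen by the same rule were Fabp5, a fatty acid binding protein (log2 fold change 2.32), H2-Eb2 (3.94), the lysosomal protein gene Laptm5 (2.66), S100a14 (2.90) and Lrrc42 (2.08).

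The falls chosen by this rule were led by early response genes and genes of basal epithelium and matrix. Fos, a subunit of the AP-1 transcription factor, was at 860, 1121 and 1193 CPM in mTEC hi and 5482, 5504 and 5911 CPM in mTEC lo. Igfbp5, an insulin-like growth factor binding protein, was at 300, 291 and 329 CPM against 3813, 3944 and 4141 CPM. Col6a1, a chain of collagen VI, was at 108, 105 and 118 CPM against 1833, 1832 and 1675 CPM. Libraries of 1 cell type lay close to each other in Igfbp5 and Col6a1, while mTEC hi replicate 1 was the lowest for Fos. The complement gene C3 (-2.20), Flna (filamin A, -2.70), the cytokine signalling inhibitor Socs3 (-2.87), Jun (-2.33), Egr1 (-2.04), Atf3 (-2.71), Krt5 (-2.63) and Krt14 (-2.83) complete the 12 with Ccl21a.

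**Figure D3:**
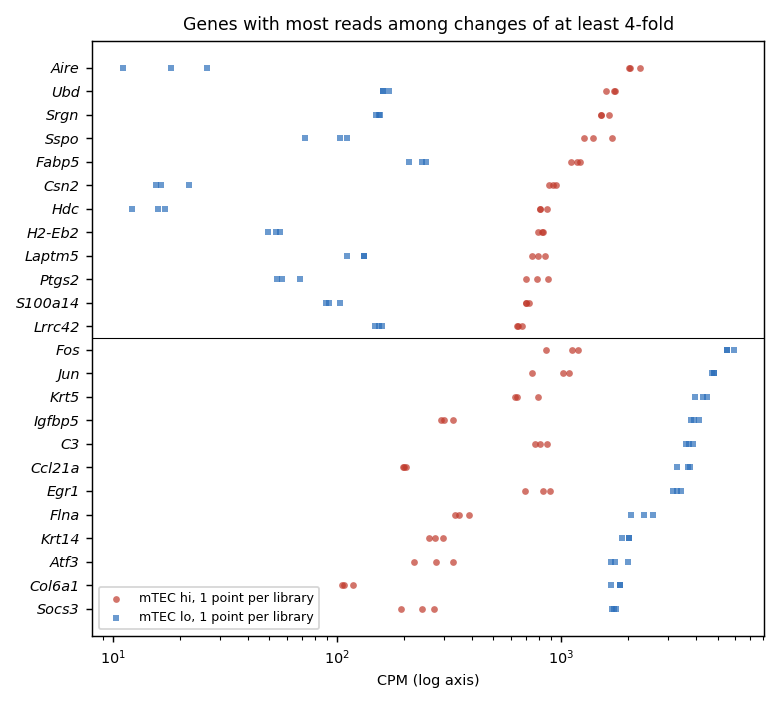
CPM of each library (log axis) for the 12 rises and 12 falls with most reads among genes chosen for a change of at least 4-fold and no overlap between circles (mTEC hi) and squares (mTEC lo). Aire is highest in mTEC hi and Fos highest in mTEC lo.

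Antigen presentation genes were examined next. Surface MHC class II is what the cells were sorted on, so the direction of the class II genes is not independent evidence. Of 17 genes of the class II machinery 13 rose and 3 fell (median log2 fold change 1.23, against 0.09 for all genes), and their summed level was 27000 to 28830 CPM in mTEC hi and 11570 to 12310 CPM in mTEC lo. The rises were uneven. Among the classical chain genes H2-Ab1 rose by 0.85, H2-Eb1 by 0.98 and H2-Aa by 1.43, and the invariant chain Cd74 by 1.23. H2-Eb2, a non-classical beta chain gene (chromosome 17, 34325665 to 34341412, plus strand), was at 823, 831 and 788 CPM against 49.4, 55.8 and 53.4 CPM, with no overlap (log2 fold change 3.94). H2-Ob (3.01) and H2-Oa (2.39), which encode the inhibitor H2-O of peptide loading, rose, as did H2-DMb1 (0.69) of the loading catalyst H2-M, and H2-DMa was at 0.01 with an adjusted p over the threshold. The endosomal enzymes Ctss (cathepsin S, 2.06) and Ifi30 (1.95) rose and the protease Lgmn fell (-0.37). Ciita, the master activator of class II transcription, was at 404, 434 and 450 CPM against 171, 200 and 164 CPM (1.27). Of the subunits of RFX, the factor that binds class II promoters, Rfx5 rose (0.99) while Rfxank (-0.69) and Rfxap (-1.09) fell.

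Class II promoters are known to hold a CCAAT box, the site of NF-Y. The stretch before the start of transcription of 3 class II genes is shown because their fold changes differ, with the CCAAT motif of either strand (CCAAT or ATTGG) in capitals. Sequences are from RefSeq (GRCm38.p6) and end at the base before the annotated start.
H2-Aa (chr17:34287824-34287943, minus strand): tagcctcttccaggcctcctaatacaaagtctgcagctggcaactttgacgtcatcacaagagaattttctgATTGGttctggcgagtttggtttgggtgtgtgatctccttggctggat
H2-Eb1 (chr17:34305747-34305866, plus strand): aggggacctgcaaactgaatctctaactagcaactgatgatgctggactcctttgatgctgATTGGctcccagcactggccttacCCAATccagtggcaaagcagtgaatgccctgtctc
H2-Eb2 (chr17:34325555-34325674, plus strand): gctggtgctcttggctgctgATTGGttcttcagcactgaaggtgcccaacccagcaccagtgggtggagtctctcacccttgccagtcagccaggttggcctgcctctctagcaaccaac
The motif starts 48 bases before the start in H2-Aa, 59 and 35 bases before it in H2-Eb1 and 100 bases before it in H2-Eb2. In the 250 bases before the start, 11 of the 13 class II genes with a promoter in the table held it. Here and below, a gene with several annotated starts counts if the motif lies before any of them. With 13 of 17 genes covered, no share is read for the list. Over all 15890 tested genes with a promoter the share was 39.2%. A match is a description of these letters and not of binding.

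Of 17 class I genes 8 rose and 6 fell (median 0.08), shares close to those of all tested genes (42.4% and 34.7%). With scaling by library size alone 11 rose and 4 fell (median 0.36). B2m, the light chain of class I, was at 4824, 5276 and 4899 CPM in mTEC hi and 4559, 4685 and 4897 CPM in mTEC lo, with overlapping libraries (0.08, adjusted p over the threshold). The immunoproteasome activator Psme2 (1.23) and the catalytic subunit Psmb10 (0.85) rose, while the other immunoproteasome subunit Psmb9 fell (-0.52) and Psmb8 was at -0.10 without a call. The peptide transporter genes Tap1 (-0.75) and Tap2 (-0.74) and the class I transactivator Nlrc5 (-0.44) fell.

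Of 16 costimulatory and checkpoint ligand genes 9 rose and 6 fell (median 0.69), beside 42.4% and 34.7% of all tested genes. Cd80, a ligand of CD28 and CTLA-4, was at 152, 146 and 144 CPM in mTEC hi and at 8.03, 7.80 and 7.45 CPM in mTEC lo (4.25). Its partner Cd86 was at 31.5, 39.2 and 33.3 CPM against 0.91, 1.42 and 0.87 CPM (5.01), and Cd70, the ligand of CD27, at 22.6, 27.0 and 32.6 CPM against 1.03, 1.62 and 0.71 CPM (4.61). No mTEC lo library reached any mTEC hi library in these 3 genes. Cd40 (3.15), Icosl (3.12), Tnfsf9 (3.21) and Tnfsf4 (3.97) rose as well. Cd274, which encodes PD-L1, was at 232, 242 and 256 CPM against 442, 365 and 456 CPM, and so fell (-0.79). Pdcd1lg2, which encodes PD-L2, was at 0.01 without a call. Lgals9, which encodes galectin-9 (-2.42), and Vsir, which encodes VISTA (-2.29), fell most.

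The TNF receptor and NF-kB list follows the signals that mature mTECs. Of 18 genes 11 rose and 5 fell (median 0.98). Tnfrsf11a, which encodes the receptor RANK, was at 292, 316 and 328 CPM against 154, 151 and 137 CPM (1.08), and Tnfrsf11b, the gene of the soluble decoy osteoprotegerin, at 200, 200 and 190 CPM against 26.4, 22.9 and 19.9 CPM (3.09). Ltbr, the lymphotoxin beta receptor, fell (-1.35). Of the NF-kB subunits, those of the non-canonical arm rose (Relb 0.96, Nfkb2 1.03), and so did Rel (1.51), while Rela (-0.66) and Nfkb1 (-0.40) fell. The feedback inhibitor Tnfaip3, which encodes A20, was at 160, 171 and 205 CPM against 576, 549 and 643 CPM (-1.72).

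Genes of proteins that work with Aire were counted with it, and the list also held Fezf2. Of 24 genes, Aire included, 6 rose and 13 fell (median -0.23), but with scaling by library size alone 11 rose and 9 fell (median 0.05), so the balance depends on the scaling. Besides Aire, the rises were Top2a (3.49), which encodes a topoisomerase of dividing cells, the deacetylase Sirt1 (2.93), Fezf2 (1.51), Parp1 (0.43) and Prmt5 (0.31). Sirt1, known to act on Aire itself, was at 587, 616 and 510 CPM against 71.3, 70.4 and 83.0 CPM. Fezf2, a transcription factor that promotes a further set of tissue-restricted genes, was at 578, 572 and 587 CPM against 213, 216 and 181 CPM. In both genes the cell types stood apart by more than the spread among libraries. The elongation kinase Cdk9 (-0.59), Chd4 (-0.46), Daxx (-0.91) and Xrcc5 (-1.71) fell, and Hipk2 (-0.01), Mbd1 (-0.08), Kat7 (0.00) and Prkdc (-0.11) did not pass the test.

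Antigens known from islet, milk, retina, nervous system and plasma rose with few exceptions. This list drew in part on genes already known to depend on Aire, so its direction is not independent evidence. Not every member is known to depend on it. Of 25 listed genes 23 were tested, 21 of which rose and 2 fell (median 4.63, or 4.58 with genes unread in mTEC lo set at their bound). The myelin gene Mog was below the read minimum and Spt1 was not matched to an identifier. Csn1s2a, another casein, was at 29.8, 31.0 and 30.3 CPM against 0.11, 0.07 and 0.04 CPM (8.65). Ins2, insulin, was at 7.51, 8.44 and 9.59 CPM against 0.13, 0.05 and 0.04 CPM (6.81). The groups lay far apart in both. Tg, thyroglobulin (4.51), Gad1, the enzyme that makes GABA (3.22), and S100a8, a calcium-binding protein of myeloid cells (5.31), also rose. Mup4, a major urinary protein gene with near-identical copies, had 970 reads in mTEC hi and 1 in mTEC lo, a CPM ratio of 859 (95% exact counting interval 154 to 33960). Rbp3, a retinal protein, had 155 reads in mTEC hi and 0 in mTEC lo, at least 45.7-fold higher against a floor of 3 reads over the group, and Mup1 was at least 16.5-fold higher. The exceptions were Crp, C-reactive protein, at 20.6, 19.1 and 17.3 CPM against 58.3, 67.4 and 57.4 CPM (-1.68), and Iapp, amylin (-0.34). The myelin gene Mbp rose little (0.82).

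Some genes were read in mTEC hi and almost never in mTEC lo. Of those with at most 3 reads over the mTEC lo libraries, the 5 with most reads in mTEC hi were Marco, Mcpt4, Car1, Lcn8 and Adipoq. Marco, a scavenger receptor of macrophages, had 2762 reads against 2, a CPM ratio of 1223 (95% exact counting interval 338 to 10100). Mcpt4, a mast cell protease, had 2201 against 1. The carbonic anhydrase Car1 had 1856 against 3, the lipocalin Lcn8 of the epididymis 1780 against 3, and Adipoq, the fat hormone adiponectin, 1674 against 2. Each was read in all mTEC hi libraries, at between 7.68 and 15.8 CPM. Intervals here cover counting error only.

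Mimetic cell programmes were described next. Of 25 transcription factors that set such lineages 12 rose and 7 fell (median 0.42), beside 42.4% and 34.7% of all tested genes, at 1258 to 1370 CPM in mTEC hi and 1200 to 1321 CPM in mTEC lo in sum. Spib, the factor of microfold cells, was at 446, 458 and 503 CPM against 365, 348 and 338 CPM and rose little (0.42), and Nkx6-2, a homeobox factor, rose more (2.17). Other lineage factors stand with their programmes below. Tuft cells, chemosensory cells of mucosa, stood on the mTEC lo side: all 16 listed genes fell (median -2.56). Their summed level was 485 to 679 CPM in mTEC hi and 3330 to 3555 CPM in mTEC lo. Dclk1, a kinase used as a tuft cell marker, was at 58.9, 51.8 and 68.5 CPM against 446, 447 and 482 CPM (-2.94). Trpm5, the cation channel of taste transduction, was at 77.3, 75.9 and 110 CPM against 639, 592 and 570 CPM (-2.78). mTEC hi replicate 3 was highest of its group in both, and still far under mTEC lo. The lipid mediator genes Alox5ap (-3.24), Alox5 (-2.75) and Ptgs1 (-2.23) fell with them, and so did the lineage factor Pou2f3 (-0.95). In bulk libraries fewer cells of a type and less RNA per cell cannot be told apart.

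Genes of gut lining and liver stood on the other side, with 18 of 19 tested genes up and none down (median 3.23), and Rbp2 at 0.59 without a call. Serpina1a was below the read minimum. Alb, albumin, was at 20.8, 19.6 and 19.2 CPM against 0.28, 0.18 and 0.05 CPM (6.84), and the lipoprotein gene Apob at 86.7, 74.4 and 86.1 CPM against 1.25, 0.87 and 0.93 CPM (6.34). The intestinal factor genes Cdx1 (3.56) and Cdx2 (2.19) and the liver and gut factors Hnf4g (1.87) and Hnf4a (1.06) rose too. Brush border genes were nearer to equal: Vil1, villin, rose by 0.34 and Cdhr5 by 0.54.

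The exocrine pancreas list behaved alike in its enzymes but not in its lineage factors. Of 15 tested genes 12 rose and 2 fell (median 3.85), and Amy2a5 was below the read minimum. The elastase Cela3b had 1048 reads in mTEC hi and 1 in mTEC lo (ratio 928, interval 166 to 36680), and the lipase Pnlip had 610 against 1. Ctrb1, chymotrypsinogen, was at 38.6, 36.7 and 41.3 CPM against 0.97, 0.72 and 0.45 CPM (5.76). Of the factors of acinar cells, Ptf1a rose (2.95), Bhlha15 was at 0.63 without a call and Rbpjl fell, from 6.57, 4.71 and 6.13 CPM in mTEC lo to 0.93, 0.64 and 0.85 CPM in mTEC hi (-2.86).

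Muscle genes rose in 12 of 17 tested cases and fell in 3 (median 1.73), with Tnnc2 below the read minimum. Myh8, a perinatal myosin, was at 35.6, 34.6 and 24.9 CPM against 0.08, 0.18 and 0.02 CPM (8.40), and Myh3, the embryonic myosin, at 73.2, 45.8 and 56.8 CPM against 0.80, 0.23 and 0.44 CPM (6.91). Cacna1s, the calcium channel of the muscle triad, also rose (7.42). The actin gene Acta1 was at 3.25, 9.16 and 4.02 CPM against 4.14, 9.91 and 5.65 CPM, so its libraries overlapped (-0.24, no call). Of the muscle lineage factors, Myod1 had 325 reads against 2 (ratio 144, interval 39.5 to 1193) and Myf6 rose (3.50), while Myog was at -0.19 without a call. Musk (-1.83), the kinase of the neuromuscular junction, fell.

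Ciliated cell genes rose in 12 of 18 cases and fell in 4 (median 1.09). Mcidas, which starts the multiciliated programme, was at 18.2, 12.6 and 14.4 CPM against 0.57, 0.67 and 0.20 CPM (4.97), and its target Foxj1 rose less (1.16). The axonemal genes went in both directions, with Hydin (2.26) and Dnah9 (2.20) up and Dnah11 down (-2.14). In the ionocyte list 8 of 12 rose and 3 fell (median 0.66). Coch, which encodes cochlin of the inner ear (chromosome 12, 51593341 to 51605771, plus strand), was at 90.7, 84.5 and 88.9 CPM against 0.78, 0.97 and 0.78 CPM (6.70). The anion exchanger Slc26a4, pendrin, rose (3.53). Of the ionocyte factors Foxi1 rose (0.73) and Ascl3 fell (-2.20), and the summed level of the list was 237 to 251 CPM in mTEC hi and 268 to 276 CPM in mTEC lo. In the microfold list 6 of 11 rose and 3 fell (median 0.25), beside 42.4% and 34.7% of all tested genes. Its Ccl20 was up (1.46) and the surface receptor Gp2 down (-1.40).

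Secretory genes rose in 12 of 18 cases and fell in 4 (median 1.36). The goblet cell products Zg16 (4.79) and Muc2 (4.63) rose, with Muc2 at 21.5, 20.3 and 21.5 CPM against 1.39, 0.74 and 0.44 CPM. The airway mucin Muc5b (-2.13) and lactoferrin, Ltf (-2.26), fell. The summed level nevertheless was lower in mTEC hi, 7532 to 8866 CPM against 11400 to 14610 CPM. Most of it came from Fcgbp, a mucin-associated protein, which was at 6657, 7599 and 7997 CPM against 12830, 13890 and 10830 CPM (-0.75).

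Keratinized epidermis genes rose in 12 of 20 cases and fell in 5 (median 0.63), or 14 and 2 with scaling by library size alone. Sprr3, a cornified envelope precursor (5.55), Tgm3, the transglutaminase that crosslinks it (4.10), and Lce3a (4.09) rose most. Flg, filaggrin (-0.45), and Krtdap (-0.96) fell, and Lor, loricrin (-0.07), and Ivl, involucrin (0.01), did not pass the test. Of the 16 members with a promoter in the RefSeq table, 10 (62.5%) held TATAAA on either strand in the 250 bases before the start, against 10.9% of all tested genes with a promoter. The 10 went in all directions: they included Sprr3 and Tgm3, which rose, Flg and Krtdap, which fell, and Lor and Ivl, which were not called.

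**Figure D4:**
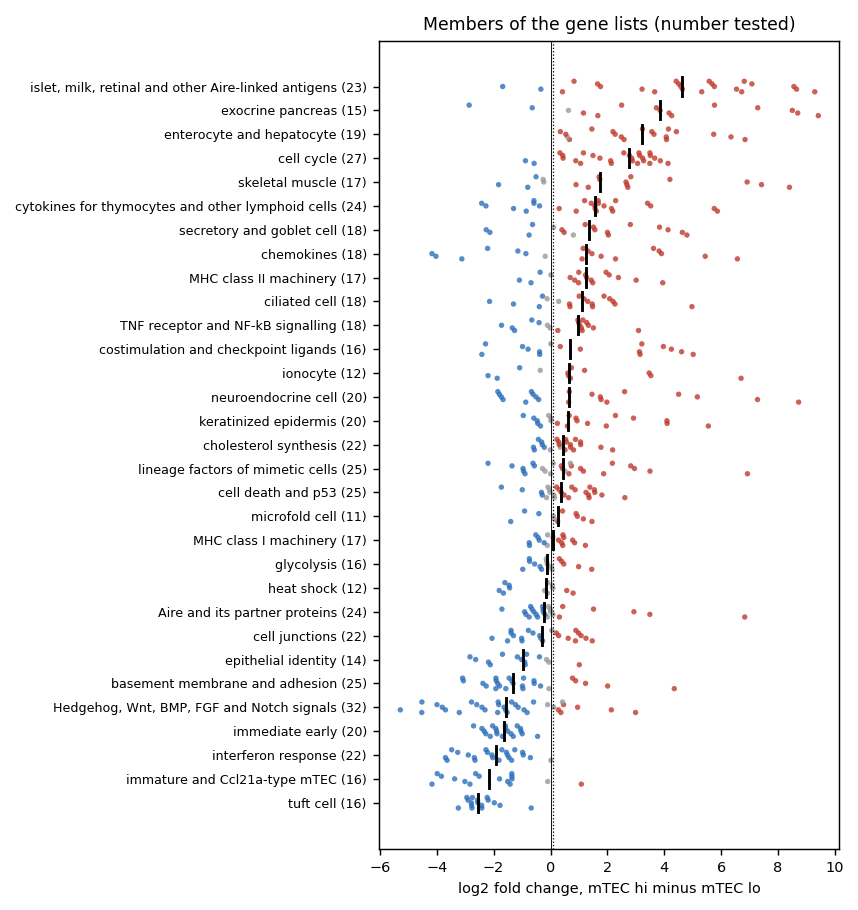
Log2 fold change of the tested members of each gene list (red rose, blue fell, grey not called), with the list median as a black bar and a dotted line at the median of all tested genes (0.09). Lists run from tuft cells (median -2.56) at the bottom to Aire-linked antigens (4.63) at the top.

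Neuroendocrine genes rose in 11 of 20 cases and fell in 9 (median 0.65), beside 42.4% and 34.7% of all tested genes. With scaling by library size alone 11 rose and 6 fell. Seen after the values were known, the list divided by what the products do. The peptide hormone genes Vip, Gast, Calca, Pyy, Cck and Gcg rose. Vip was at 15.4, 11.6 and 14.6 CPM against 0, 0.02 and 0.07 CPM (8.72), and Calca, calcitonin, at 125, 126 and 117 CPM against 4.03, 3.42 and 2.85 CPM (5.16). Genes of the granules that store such peptides, and of their release, were lower: Chga, chromogranin A, was at 73.2, 66.8 and 79.4 CPM against 174, 235 and 288 CPM (-1.67). Chgb (-1.73), Scg2 (-1.85), Scg3 (-0.87), Scg5 (-0.62) and the SNARE gene Snap25 (-1.80) fell too. Exceptions were Ghrl, ghrelin, a peptide hormone gene that fell (-0.67), and the vesicle genes Syt1 (1.98) and Syp (0.66), which rose. The lineage factor Insm1 was at 257, 277 and 272 CPM against 41.3, 37.8 and 35.03 CPM (2.82), while Neurod1 was at 0.51 without a call.

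**Figure D5:**
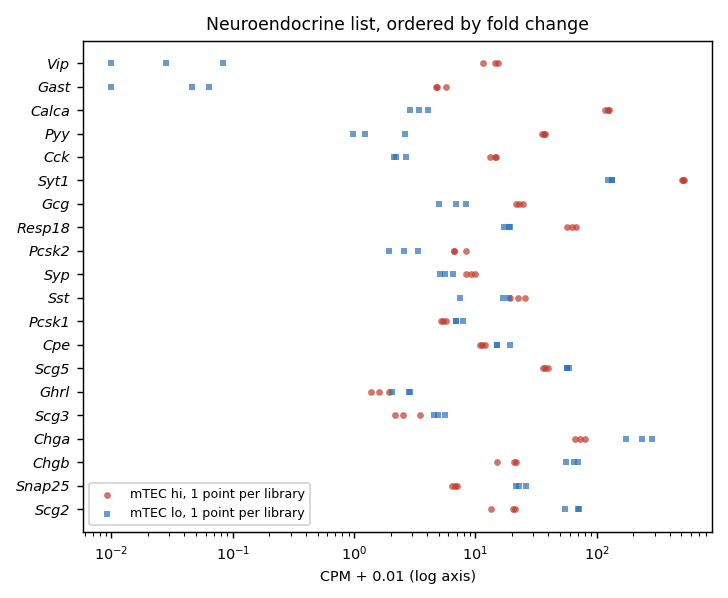
CPM of each library (log axis, with a small constant added as labelled) for the 20 neuroendocrine genes, ordered by fold change. Peptide genes such as Vip and Calca lie to the right in mTEC hi (circles), and granule genes such as Chga and Scg2 lie to the right in mTEC lo (squares).

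Of 18 neuroendocrine members with a promoter in the table, 4 (22.2%) held the cAMP response element TGACGTCA in the 250 bases before the start, against 2.49% of all tested genes with a promoter. They were Chgb, Scg2, Pcsk1, the prohormone convertase (-0.42), and Sst, somatostatin (0.64). Of the 4, Sst rose and the others fell. Shown with the element in capitals are the 3 with the strings nearest in place, so that a reader can compare a gene that rose with genes that fell.
Sst (chr16:23890845-23890964, minus strand): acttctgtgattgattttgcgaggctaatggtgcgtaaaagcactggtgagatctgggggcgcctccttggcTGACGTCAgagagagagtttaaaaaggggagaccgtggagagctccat
Scg2 (chr1:79440027-79440146, minus strand): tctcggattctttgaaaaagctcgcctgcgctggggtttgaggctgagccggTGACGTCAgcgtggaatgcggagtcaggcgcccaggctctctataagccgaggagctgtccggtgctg
Chgb (chr2:132781522-132781641, plus strand): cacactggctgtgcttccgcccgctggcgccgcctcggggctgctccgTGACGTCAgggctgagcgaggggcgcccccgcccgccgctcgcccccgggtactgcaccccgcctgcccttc
The element starts 48, 68 and 72 bases before the start in Sst, Scg2 and Chgb. Sst was at 25.7, 19.3 and 22.4 CPM in mTEC hi and 16.98, 18.9 and 7.45 CPM in mTEC lo, with mTEC lo replicate 3 lowest and the groups nearly touching.

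Genes of immature and CCL21-producing mTECs were higher in mTEC lo, where 14 of 16 fell and 1 rose (median -2.15). Lifr, the leukaemia inhibitory factor receptor, was at 81.9, 81.3 and 79.5 CPM against 1271, 1298 and 1271 CPM (-3.98). Apoe (-3.84), the laminin receptor Bcam (-3.37), Pdpn, podoplanin (-3.01), and the stem cell antigen Ly6a (-2.51) fell. The rise was Tnfrsf11a, given above, and Krt15 was at -0.10 without a call. In the list of epithelial identity 11 of 14 genes fell and 1 rose (median -0.96), and Krt8 was not called. Foxn1, the factor that sets up thymic epithelium, was at 208, 214 and 220 CPM against 101, 115 and 103 CPM and rose (1.01), while Trp63, the factor of basal epithelium, fell from 516, 550 and 535 CPM in mTEC lo to 119, 132 and 117 CPM in mTEC hi (-2.12).

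Matrix and adhesion genes followed the basal keratins, with 19 of 25 lower and 5 higher in mTEC hi (median -1.32). Lamb1, a laminin beta chain, was at 68.7, 67.8 and 74.5 CPM against 588, 630 and 581 CPM (-3.09). The laminin chain genes Lama3 and Lamb3 fell by 2.38 and 3.06 on the log2 scale, and so did both subunits of a laminin receptor, Itga6 (-1.36) and Itgb4 (-1.79). Against them, the linker Nid1, nidogen, rose from 3.32, 3.44 and 2.64 CPM to 68.1, 60.0 and 63.8 CPM (4.35), whereas Nid2 fell (-0.35). Of 22 junction genes 9 rose and 12 fell (median -0.31), beside 42.4% and 34.7% of all tested genes. With scaling by library size alone 10 rose and 9 fell (median -0.04). Tight junction genes Ocln (1.07), Tjp3 (1.24), Marveld2 (1.47) and Cldn7 (0.98) rose, while Cldn1 (-1.51), Cldn8 (-2.06) and the desmosome genes Dsp (-1.02) and Dsc2 (-1.31) fell.

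Morphogen pathway genes were mostly lower in mTEC hi, with 23 of 32 down and 6 up (median -1.55). In the Hedgehog pathway the coreceptor Gas1 (chromosome 13, 60174405 to 60177365, minus strand) was at 15.4, 15.2 and 15.4 CPM against 622, 602 and 566 CPM (-5.28). The coreceptor Boc (chromosome 16, 44485049 to 44558897, minus strand) was at 23.9, 23.4 and 25.3 CPM against 575, 558 and 539 CPM (-4.53). The libraries of the cell types lay far apart in both genes. The receptor Ptch1 (-0.93) and the effectors Gli2 (-0.82) and Gli3 (-1.82) fell less, and Gli1, a target of the pathway, stayed near 1 CPM in both cell types (-0.10, no call). In the Wnt pathway the ligands Wnt4 (-1.84) and Wnt5a (-2.30) fell, and the target gene Axin2 was at 0.11 without a call. Fst, follistatin, which binds activins and BMPs (-4.52), the BMP target genes Id1 (-3.81) and Id3 (-2.78), and Fgfr2 (-3.99) fell. Of the Notch genes, the receptors Notch1 (-0.60), Notch2 (-1.24) and Notch3 (-2.41), the ligand Jag1 (-1.63) and the target Hes1 (-1.86) fell, but the ligand Dll4 rose (2.14). Igf1, insulin-like growth factor 1, was at 163, 204 and 175 CPM against 20.5, 21.5 and 26.4 CPM (2.99).

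Among 18 chemokines 11 rose and 6 fell (median 1.23), and their summed level was lower in mTEC hi, 1944 to 2008 CPM against 5415 to 5890 CPM, mostly through Ccl21a. Ccl22, a ligand of CCR4, was at 132, 140 and 118 CPM against 2.47, 3.66 and 2.85 CPM (5.44). Xcl1, which draws XCR1-bearing dendritic cells, was at 5.91, 3.41 and 3.52 CPM against 0.08, 0.04 and 0.02 CPM (6.57). Ccl25, the ligand of CCR9, was at 437, 446 and 411 CPM against 25.1, 34.95 and 31.8 CPM (3.82). Libraries of the cell types did not overlap in any of these. Ccl17 (3.90), Ccl5 (3.62) and Ccl19 (2.28) rose, while Cxcl12 (-3.12), Cxcl14 (-4.03), Cx3cl1 (-2.21) and Cxcl10 (-1.15) fell.

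Of 24 cytokines and their partners 17 rose and 7 fell (median 1.56). Il12a, the p35 chain of interleukin-12, was at 53.6, 61.4 and 60.0 CPM against 1.03, 0.96 and 1.02 CPM (5.87), and Lta, lymphotoxin alpha, at 15.05, 18.2 and 16.6 CPM against 0.09, 0.34 and 0.47 CPM (5.76). Tnf (3.41), Il23a (2.19), Tslp (2.14) and Il15 (1.43) rose, while the Il15 receptor chain Il15ra fell (-0.58). Il7, the survival factor of thymocytes, was at 70.2, 71.0 and 62.7 CPM against 309, 335 and 341 CPM (-2.27). Tgfb2 rose (2.29) where Tgfb3 fell (-2.42) and Tgfb1 rose little (0.30).

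Cell cycle genes were higher in mTEC hi, with 25 of 27 up and 2 down (median 2.77). Mki67, the proliferation marker Ki-67, was at 223, 221 and 197 CPM against 26.3, 23.0 and 18.7 CPM (3.24). The largest changes of the list were those of the mitotic checkpoint kinase Bub1 (4.13) and the mitotic kinase Cdk1 (3.86), at 44.4, 46.9 and 41.1 CPM against 3.42, 3.82 and 1.89 CPM. The smallest rises were those of the replicative helicase subunits Mcm2 (0.33) and Mcm6 (0.44) and the sliding clamp Pcna (0.43). The D cyclins differed among themselves: Ccnd2 was at 414, 438 and 430 CPM against 99.0, 106 and 91.8 CPM (2.11), and Ccnd1 (-0.58) and Ccnd3 (-0.88) fell.

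Of the 22 cell cycle genes with a promoter in the table, 18 (81.8%) held CCAAT on either strand in the 250 bases before the start, against 39.2% of all tested genes with a promoter. Cdk1 and Ccnb1, partners in the kinase that starts mitosis, are shown because each holds the motif more than once (capitals, either strand).
Cdk1 (chr10:69352913-69353132, minus strand): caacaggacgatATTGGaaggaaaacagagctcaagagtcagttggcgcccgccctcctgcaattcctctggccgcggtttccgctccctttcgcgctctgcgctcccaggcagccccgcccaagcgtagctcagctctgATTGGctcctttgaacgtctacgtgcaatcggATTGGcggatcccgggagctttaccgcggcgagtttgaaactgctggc
Ccnb1 (chr13:100786487-100786606, minus strand): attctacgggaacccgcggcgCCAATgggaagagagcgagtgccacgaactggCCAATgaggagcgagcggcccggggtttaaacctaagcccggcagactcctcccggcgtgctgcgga
The motif starts 208, 80 and 48 bases before the start in Cdk1, and 99 and 67 bases before it in Ccnb1. Ccnb1 was at 20.1, 25.1 and 22.9 CPM against 2.22, 1.93 and 1.24 CPM (3.66). Ccnd3, which fell, held the motif as well.

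Of 25 genes of cell death and p53 response 15 rose and 4 fell (median 0.38), or 20 and 2 with scaling by library size alone. The survival gene Bcl2a1b (2.61), the stress sensor Sesn2 (1.81), the death receptor Fas (1.54) and Bcl2l1, which encodes BCL-XL (1.38), rose, while Bcl2 was at 22.7, 23.0 and 22.0 CPM against 75.4, 76.8 and 72.4 CPM (-1.73). Bcl2a1b has near-identical copies, and reads that fit more than 1 of them were left out as multimapping, so its CPM can be too low. Trp53 (0.12) and the p53 target Cdkn1a (-0.04) did not pass the test. In cholesterol synthesis 14 of 22 genes rose and 6 fell (median 0.42), or 16 and 2 with scaling by library size alone, led by Idi1 (2.18) and Mvd (1.77). In glycolysis 5 of 16 rose and 6 fell (median -0.12), but 9 rose and 4 fell with scaling by library size alone (median 0.15), with the hexokinase Hk2 up (1.45) and Hk1 down (-0.98).

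Interferon response genes were lower in mTEC hi, with 21 of 22 down and none up (median -1.92). Their summed level was 1705 to 1740 CPM in mTEC hi and 5686 to 6019 CPM in mTEC lo. Ifit3, an antiviral protein that binds other IFIT proteins, was at 28.6, 25.9 and 30.8 CPM against 367, 341 and 393 CPM (-3.69). Rtp4, a chaperone of membrane receptors (-3.64), Oas2, a sensor of double-stranded RNA (-3.48), and Irf7, a regulator of type I interferon (-2.89), fell. Of the transcription factor ISGF3, Stat2 fell by 2.27 and Irf9 by 2.03 on the log2 scale. Usp18, the feedback inhibitor of the type I interferon receptor, was at 199, 213 and 211 CPM against 201, 210 and 207 CPM, with overlapping libraries (0.01, no call).

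The interferon-stimulated response element, searched on both strands as GAAA followed by GAAA with any 2 bases between them, is the site of ISGF3. It was held by 10 of the 16 members with a promoter in the table. With 16 of 22 members covered no share is read for the list, and 3.28% of all tested genes with a promoter held it. The stretches before Ifit3, Isg15 and Gbp3 are shown because each holds the string more than once, in capitals (written with TTTC where it lies on the other strand). Copies overlap in Isg15 and Gbp3.
Ifit3 (chr19:34583369-34583528, plus strand): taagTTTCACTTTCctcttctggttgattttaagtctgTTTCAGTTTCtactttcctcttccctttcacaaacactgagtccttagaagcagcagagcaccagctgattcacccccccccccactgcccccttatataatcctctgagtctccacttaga
Isg15 (chr4:156200819-156200938, minus strand): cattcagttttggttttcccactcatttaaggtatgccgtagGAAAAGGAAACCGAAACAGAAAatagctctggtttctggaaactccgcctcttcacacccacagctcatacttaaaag
Gbp3 (chr3:142559924-142560043, plus strand): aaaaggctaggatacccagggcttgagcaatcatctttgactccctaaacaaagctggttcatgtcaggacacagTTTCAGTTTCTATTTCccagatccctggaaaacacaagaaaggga
Copies start 156 and 122 bases before the start in Ifit3, at 78, 72 and 66 in Isg15 and at 45 and 39 in Gbp3. Isg15, a ubiquitin-like protein, was at 31.0, 30.8 and 36.1 CPM against 213, 202 and 210 CPM (-2.68), and Gbp3, a guanylate-binding protein, at 45.3, 42.8 and 40.8 CPM against 262, 261 and 290 CPM (-2.66).

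All 20 immediate early genes, a class that responds to dissociation of tissue, fell (median -1.64). Their summed level was 6374 to 8492 CPM in mTEC hi and 27140 to 28500 CPM in mTEC lo. Fosb was at 880, 1019 and 1168 CPM against 3910, 3607 and 3793 CPM (-1.88), with mTEC hi replicate 1 lowest, as in Fos, Jun and Egr1. Myc changed least (-0.46). Heat shock genes fell in 5 of 12 cases and rose in 2 (median -0.16), but with scaling by library size alone 5 fell and 5 rose (median 0.11). The inducible chaperones Dnajb1 (-1.80), Hspa1a (-1.66) and Hspa1b (-1.44) fell. The last pair are near-identical genes, and reads that fit both were left out as multimapping. The mitochondrial chaperones Hspd1 (0.79) and Hspe1 (0.57) rose. Whether handling during the sort has a part in these values was not tested.

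Markers of other cell types that a sort of thymus cells could hold were read in the same way. Of 10 B cell genes 9 rose and none fell (median 3.29), with summed levels of 257 to 265 CPM in mTEC hi and 78.2 to 113 CPM in mTEC lo. With replicates 2 and 3 alone, or with genotype from the source name, 8 rose and 1 fell. Of 14 genes of dendritic cells and macrophages 12 rose and 2 fell (median 2.34), with summed levels of 660 to 710 CPM and 164 to 168 CPM. Adgre1, the macrophage antigen F4/80, was at 22.0, 19.8 and 16.3 CPM against 0.99, 1.17 and 0.47 CPM (4.46), and Flt3 rose too (5.02). Ptprc, which encodes CD45 of all leukocytes, went the other way, at 24.4, 14.6 and 12.3 CPM against 24.9, 26.8 and 24.8 CPM (-0.57). The B cell markers Ms4a1 (5.74) and Pax5 (3.41) rose, while Cd79b was at 15.8, 15.6 and 14.7 CPM against 11.1, 13.99 and 12.6 CPM (0.29).

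Of 14 thymocyte genes 8 rose and none fell (median 0.77), with summed levels of 180 to 250 CPM in mTEC hi and 55.2 to 101 CPM in mTEC lo. Tcf7 was at 115, 103 and 97.6 CPM against 24.7, 17.4 and 13.7 CPM, so it rose with no overlap and Ptcra, the pre-T cell receptor chain, rose (3.38). Cd8b1 was highest in replicate 1 of both cell types, at 7.20, 2.13 and 2.46 CPM against 4.79, 2.09 and 2.45 CPM (0.34, no call). All 6 erythroid genes rose (median 3.46), with summed levels of 28.4 to 30.6 CPM and 1.64 to 3.67 CPM, led by Slc4a1 (5.86). Hba-a1, a haemoglobin gene with a near-identical copy, rose by 3.65. Of 11 fibroblast and pericyte genes 6 rose and 4 fell (median 2.04), at 941 to 992 CPM and 938 to 977 CPM in sum. Col1a1 (3.60) and Pdgfrb (3.44) rose while Pdgfra (-1.81) and Dcn (-2.05) fell. Of 9 endothelial genes 2 rose and 3 fell (median -0.11), but with scaling by library size alone 3 rose and 1 fell (median 0.16). Tek fell (-0.75), and Emcn fell in the main comparison (-0.94, edgeR adjusted p = 0.0113) but lost its call when only library size set the scaling (adjusted p = 0.0606), with RSEM counts (0.0783) and against a 1.5-fold minimum (0.0847).

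Of 11 genes of cortical thymic epithelium 6 rose and 4 fell (median 0.26), beside 42.4% and 34.7% of all tested genes. Their summed level was 1468 to 1497 CPM in mTEC hi and 1993 to 2325 CPM in mTEC lo. Ccl25, given above, Cd83 (3.54) and Tbata (2.71) rose, while the protease Ctsl (-3.12) and the scavenging receptor Ackr4 (-2.91) fell. Psmb11 was at 8.23, 10.3 and 7.56 CPM against 7.16, 12.3 and 7.53 CPM, overlapping between the cell types (-0.04, SE 0.19, edgeR adjusted p = 0.852). None of the markers in these 7 lists was without reads in either cell type. The part of other cells in the values above, Marco, Mcpt4 and the chemokines included, was not tested.

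The same contrast was made in the 6 libraries titled knockout, which share no library with those titled WT. There 18403 of 24624 tested genes differed, 10265 up and 8138 down. Of the 18421 genes called in WT and tested there, 18303 had the same sign and 16880 were also called with the same sign. The difference between the contrasts, tested over all 12 libraries, passed for none of 26372 genes by edgeR (0%), with 1411 genes (5.35%) at an unadjusted p under 0.05. DESeq2 called 3 genes, Fabp6, Pappa2 and Retnlg, and edgeR called 145 of 42255 genes when no filter on low counts was used. Data of this size were simulated with changes only in genes of at least 2 CPM, otherwise at equal levels in both cell types. There edgeR recovered 44% of differences of 1.5-fold, 76% of 2-fold and 100% of 4-fold, so small differences could be missed. Genes with few reads in mTEC lo were not covered, so larger differences in these could be missed too. The lowest p was that of Pappa2, a protease of insulin-like growth factor binding proteins, which rose by 3.01 in WT and 3.68 in the knockout (difference -0.68, SE 0.10, adjusted p = 0.121). It was at 7.15, 7.19 and 6.52 CPM in mTEC lo titled WT and 4.69, 4.84 and 4.68 CPM in mTEC lo titled knockout. Next came Fabp6, a bile acid binding protein of the ileum (difference 0.96, adjusted p = 0.537), Reg3b, an antimicrobial lectin of the gut (-1.78, 0.537), A2m, alpha-2-macroglobulin (3.11, 0.845), and Prlh, prolactin-releasing hormone (-5.29, 0.845). Prlh had no read in mTEC lo titled knockout, so its fitted difference depends on the prior count. A2m was at 0.04, 0.02 and 0.02 CPM in mTEC lo titled WT and 0.33, 0.07 and 0.19 CPM in mTEC lo titled knockout. The difference of A2m thus rests on few reads too.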

How the data were processed

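RNA of 12 mTEC libraries was analysed, of which the 6 titled WT enter the main comparison. The authors deposited for each library unnormalised whole-number read counts (1 unstranded and 2 stranded columns) and RSEM tables with expected counts and TPM. Per the submitters' processing notes, CASAVA 1.8.2, STAR 2.5.1b and RSEM 1.2.28 were used with the build name GRCh38, although the identifiers are mouse genes; no annotation version is named there. The strand columns each held about an equal share (one of them 50.4% to 50.6%), so the unstranded column was used, and reads of a gene and its antisense partner cannot be told apart. RSEM totals were 0.512 to 0.526 of the read totals, and the cause was not tested. Rows that name no gene were left out: in the WT libraries reads in no gene were 10.02% to 15.8%, multimapping reads 6.14% to 7.57% and ambiguous reads 3.57% to 3.92%.

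Of 50600 identifiers 50376 were matched to symbols in GENCODE M21 (45737 with the same version). After filterByExpr (minimum count 10 and minimum total 15) and TMM scaling, edgeR 4.0.16 gave the quasi-likelihood F test in R 4.3.3, with Benjamini-Hochberg adjustment over all tested genes at 0.05 and no covariate; the common dispersion had a square root of 0.0989. Alternatives used DESeq2 1.42.0, limma 3.58.1 and rounded expected counts. The fit for mTEC hi against mTEC lo was tested on simulated data with changes only in genes of at least 2 CPM. It found 82% of genes changed 1.5-fold and 100% of those changed 2-fold, and 22 of its 213 calls were of unchanged genes. This share is above the threshold of 0.05, in a simulation where far fewer genes changed than were called in the data. In the simulation for WT minus knockout 8 of 168 calls were of unchanged genes. The 38 lists (665 genes) were described by counts and medians with no set test. Members, lists and motifs were chosen with earlier results of these data known. Named genes are the 12 rises and 12 falls with highest CPM among called genes with a 4-fold change and no overlap (predicted and mitochondrial genes left out), the 2 called genes of largest change per list with at least 1 CPM, Aire, Ccl21a, Psmb11, the 5 genes per direction with at most 3 reads in the other cell type, and the 5 lowest p for WT minus knockout. Further list members are named as examples of a role and were chosen after their values were seen. RefSeq promoters (GRCm38.p6, matched by symbol) covered 15890 of 24382 tested genes with 19863 promoters. A gene with several promoters was counted as holding a motif if any of them held it. Shares are given only for lists with at least 80% of members covered. The main fit did not pair libraries by replicate number, and the labels do not state whether equal numbers mark a pair. Some list members are counted in their lists but not reported by name here.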

Additional observations from a re-analysis of the deposited data

How the results depend on the processing

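The total of 18807 called genes ranged from 12575 (minimum change of 1.5-fold) to 21426 (no filter on low counts), and from 18520 to 19333 when each library was left out in turn. Leaving out libraries gave 10194 to 10939 rises, 8227 to 8475 falls, 4737 to 5379 genes at least 8-fold higher, 299 to 344 at least 8-fold lower, and 5521 to 5762 more genes detected in mTEC hi. A minimum of 1.5-fold left 4157 falls. Without the filter 6927 genes were at least 8-fold higher, since more genes with few reads were tested, and with scaling by library size alone 182 were at least 8-fold lower. The difference between WT and knockout was called for 3 genes by DESeq2 and for 145 without the filter; the cause was not tested. The excess of detected genes was 6461 with at least 1 read, 4095 with at least 20 reads and 3773 with at least 1 TPM. With scaling by library size alone the medians of 4 lists turned positive: Aire and its partners (0.048), heat shock (0.11), glycolysis (0.15) and endothelium (0.16), the last also with genotype from the source name (0.027). Of 1504 alternative values of 94 named genes, 1501 kept direction and call, and the other 3 were those of Emcn. Nearly all of the 94 were chosen as called, mostly with large changes, so the count says little about other genes. Genes named only for at most 3 reads in the other cell type, such as Marco, were not checked. Nor were those named for WT minus knockout. With replicates 2 and 3 alone, an alternative that was added for the lists after the data were seen, 17801 genes were called and no list median changed sign. Deviations of same-numbered libraries from their group means correlated over all tested genes with r of 0.03, 0.01 and -0.04. For libraries of different numbers r lay between -0.04 and 0.03. With so few libraries these values cannot show whether equal numbers mark a pair. With the replicate block 18007 genes were called (10009 up, 7998 down). The exact sign-flip p for detected genes was 0.25, below which a test of 3 pairs cannot go. The replicate number in the labels is not stated to mark a shared animal or day.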

Other observations

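Of the tested protein-coding genes 17.5% were at least 8-fold higher in mTEC hi, and 73 runs of at least 5 such genes, each next to the other among tested genes, held 510 of them. Genes below the read minimum are skipped, and members of these families can pass it through mTEC hi alone, so the runs are a description and are partly set by the filter. The longest run had 16 genes, the kallikrein cluster of chromosome 7 (43841971 to 44220703, GRCm38, GENCODE M21), which encodes secreted serine proteases, many of them near-identical Klk1b copies. A run of 15 genes on chromosome 14 (55941451 to 56262260) held mast cell proteases and granzymes from Cma1 to Gzmb. Another of 15 on chromosome 5 (87575969 to 88506049) held the caseins, salivary and enamel proteins from Sult1e1 to Enam. Runs of olfactory receptor genes, defensins and pregnancy-specific glycoproteins followed. Reads that fit several neighbours of like sequence were left out as multimapping, which makes members of such families uncertain when read singly.

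Of genes with at most 3 reads in mTEC hi, the 3 with most reads in mTEC lo took nearly all of them from 1 library. The immunoglobulin heavy chain variable gene Ighv13-2 was at 26.7 CPM in mTEC lo replicate 2 and at 0 in mTEC lo replicates 1 and 3, and Igkv12-44 was at 9.64 CPM there against 0.06 and 0.07 CPM. Ighv1-15 was at 7.48 CPM in that library and at 0 in the other mTEC lo libraries. Ighm, the constant region of IgM, was at 18.2, 57.6 and 58.6 CPM in mTEC lo replicates 1 to 3 and at 28.5, 32.6 and 30.8 CPM in mTEC hi. The pseudogenes Rpl12-ps2 (1.14 CPM in mTEC lo replicate 2) and Rpl34-ps2 (0.13, 0.54 and 0.29 CPM in mTEC lo) complete the 5.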
